A study of Mus musculus with 12 samples.

Results

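The genes described here are 9 markers of neuroblasts and of neurogenesis in the adult brain (Dcx, Sox11, Igfbpl1, Cd24a, Dlx5, Dlx6, Nes, Mki67 and Top2a), chosen by symbol from the 55487 genes of the count table. Each symbol matched 1 row. RNA was sequenced from the brain and the liver of 6 mice, 3 labelled WT (mice B, D and E) and 3 labelled KO for Mettl5 (mice A, C and F), which gave 4 groups of 3 libraries. Mettl5 encodes the methyltransferase that, with TRMT112, places an N6-methyl mark on an adenosine of 18S rRNA. The KO allele was derived from a floxed allele in which exon 2 is removed, made in C57BL/6 and 129S6 hybrid embryonic stem cells, deleted in the whole body with a CMV-driven Cre and bred onto the C57BL/6 background, so no cell type was singled out. The labels call the controls WT, while the study is not uniform: its gene table and 1 figure legend have wild type controls, but other legends describe the sequenced mice as knockout and heterozygous, in 3 pairs. WT here means the label, and whether these mice carry 1 or 2 intact alleles is not known. The labels do not say which KO and control mice form a pair, so the genotypes were compared without pairing. The labels list no treatment. The labels give no age, sex, litter or batch, and they call the tissue brain without naming a region. The methods give 1 age range, from weeks to months, for all mice of the study, and neurogenesis falls steeply with age in rodents. Nothing in the labels beyond the mouse letter describes how the animals were raised, so the p-values measure the spread between these 6 animals.

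New neurons are made throughout adult life in the rodent brain in a pair of niches. In the subventricular zone, Nes-positive progenitors divide and give rise to neuroblasts, which carry Dcx, Sox11, Cd24a and the Dlx homeobox factors along the rostral migratory stream to the olfactory bulb, where they mature into granule and periglomerular interneurons. In the dentate gyrus of the hippocampus, the intermediate progenitors carry Eomes and Neurod1 in place of Dlx factors. A bulk brain library therefore reads these genes from the niche, from the stream and from the bulb at once, and it cannot tell more cells of a type from more RNA per cell.

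Library totals ran from 14403309 to 18365114 counts in brain and from 16145754 to 21623180 in liver. Mettl5 itself, the targeted gene, averaged 6.66 ± 2.14 CPM (normalised counts scaled to a common library size, SD, n = 3) in WT brain and 3.70 ± 0.328 CPM in KO brain, with no overlap. KO against WT gave -0.84 (SE 0.27) on the log2 scale in brain and -1.44 (SE 0.27) in liver, at edgeR adjusted p of 0.373 and 0.383 (DESeq2 0.234 and 0.00189, edgeR with no filter 0.0936 and 4.29e-06; without WT mouse D 0.868 and 0.0848). The counts sum over all its exons, so they do not read the deleted exon alone. Several tissue signals moved with genotype in brain. Mitochondrial rRNA (mt-Rnr1 and mt-Rnr2) took 21.4% to 31.6% of the counts in KO and 7.63% to 17.7% in WT. The summed CPM of 15 cerebellar genes was 2643 to 3759 in WT and 929 to 1922 in KO, and that of 11 choroid plexus genes was 250 to 412 in WT and 124 to 192 in KO. The WT library of mouse D had the highest cerebellar and choroid plexus sums and the lowest sum of 11 striatal genes (489 CPM, against 824 and 868 CPM in mice B and E), so results are also given without it. Each genotype held 1 mouse with few Y-linked counts (E in WT and F in KO), with 116 to 336 a library against 2183 to 3445 in the other mice. Xist, the RNA of the inactive X chromosome, had 9446 to 19028 counts a library in E and F and 0 to 19 in the others. By these counts E and F read as female and the other mice as male. Snap25, which encodes a synaptic fusion protein of neurons, read 1001 to 1194 CPM in the 6 brain libraries and at most 1.26 CPM in liver, and the liver secretory gene Alb read 9.71 to 24.3 CPM in brain and 47847 CPM or more in liver.

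In brain, all 9 members passed the filter on low counts and 8 of the 9 had higher mean fitted levels in KO, the exception being Nes. None was called at an adjusted p under 0.1 by edgeR's quasi-likelihood test, which called 0.064% of the 17188 genes tested. At an unadjusted p under 0.05, 4 of the 9 were higher in KO (Dcx, Sox11, Igfbpl1 and Mki67), where 5.96% of all genes tested were higher and 5.01% lower. Without mouse D these were 3, Dcx, Igfbpl1 and Dlx6. The shares are those of the fit with all brain libraries. None is given for the fit without mouse D, here or for the lists below. In 6 of the 9 (Dcx, Sox11, Igfbpl1, Cd24a, Dlx6 and Mki67) all 3 KO libraries lay above all 3 WT libraries. That pattern was seen in 8.41% of all genes, with 7.94% in the opposite direction. The members were chosen with earlier results of these data known, so their counts beside these shares are no independent evidence of a direction. The median log2 fold change of the 9 was 0.76, or 0.64 without mouse D. With DESeq2 1 member was called, Dcx, where it called 1.52% of genes, and edgeR with no filter on low counts called 2, Dcx and Igfbpl1, where it called 3.15%. The summed CPM of the members ran from 58.5 to 73.2 in WT and from 101.9 to 113.0 in KO, with Dcx holding 35.8% of it.

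**Figure D1:**
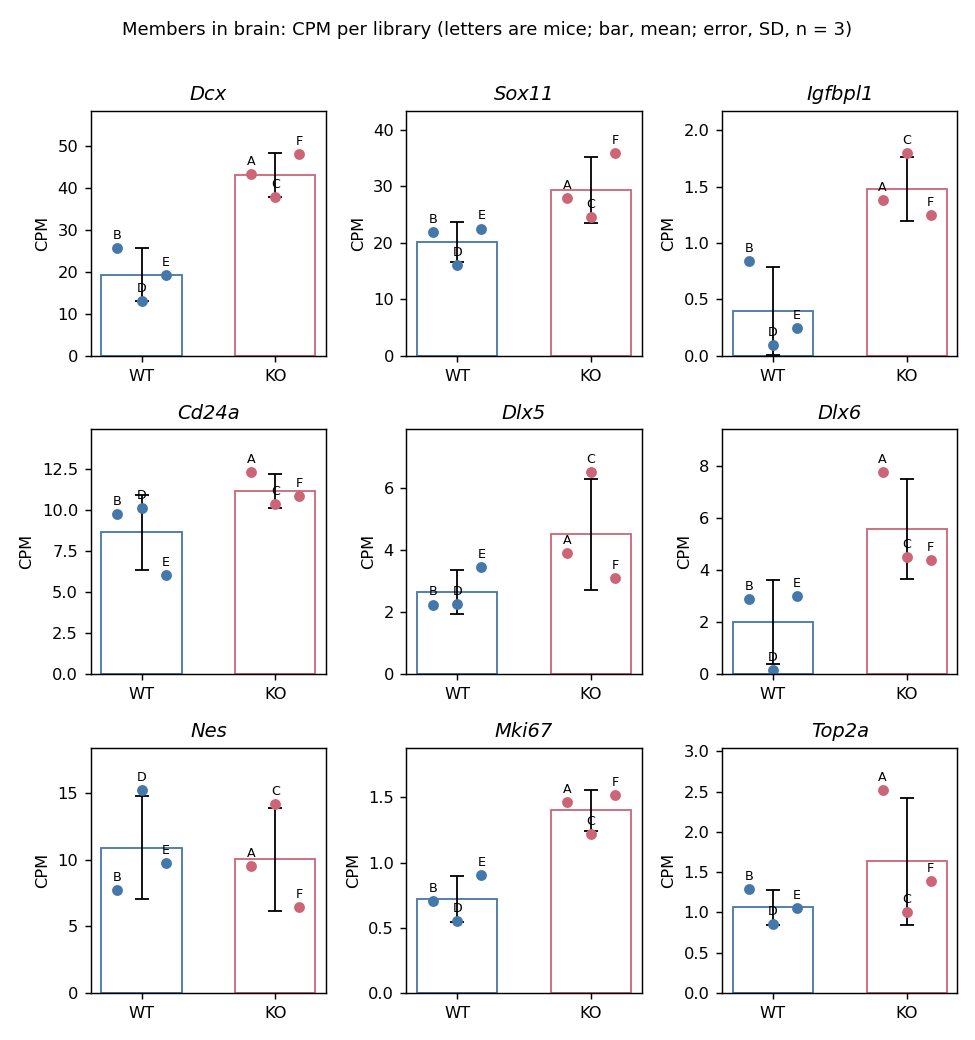
Normalised counts (CPM, linear vertical axes from 0) of the 9 members in each brain library, with bars for the group mean and error bars for the SD of 3 libraries. In Dcx, Sox11, Igfbpl1, Cd24a, Dlx6 and Mki67 all 3 KO libraries lie above the WT libraries, and in Dlx5, Nes and Top2a the groups overlap.

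Dcx encodes doublecortin, a microtubule-binding protein of migrating and newly born neurons. The gene spans 143855842 to 143933311 of chromosome X (mm10, minus strand). Dcx read 25.7, 13.0 and 19.1 CPM in WT mice B, D and E and 43.3, 37.8 and 48.1 CPM in KO mice A, C and F. The lowest KO library was above the highest WT library. Means were 19.3 ± 6.33 and 43.1 ± 5.18 CPM (SD, n = 3), from 260 to 399 counts a library in WT and 525 to 730 in KO. The log2 fold change was 1.16 (SE 0.23), with an edgeR adjusted p of 0.320 and an unadjusted p of 6.23e-04. The log2 fold change stayed between 0.94 and 1.42 when any 1 library was left out. DESeq2 gave Dcx an adjusted p of 0.00250 and edgeR without a filter 1.83e-07, whereas the alternatives together reached 0.789. Dcx is among the genes the study itself called on these libraries.

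Sox11 is a SoxC transcription factor of immature neurons, spanning 27334264 to 27342574 of chromosome 12 (minus strand). It read 21.97, 16.2 and 22.6 CPM in WT mice B, D and E and 27.9, 24.5 and 35.9 CPM in KO mice A, C and F. All KO libraries were above all WT libraries, but the gap between the highest WT and the lowest KO library was small beside the spread within a group. The log2 fold change was 0.54 (SE 0.19), with an edgeR adjusted p of 0.394 and an unadjusted p of 0.0186. Without mouse D it was 0.40, with an unadjusted edgeR p of 0.0690. Its close relative Sox4, which shares many roles in immature neurons, averaged 23.1 CPM in WT and 29.0 CPM in KO, with a log2 fold change of 0.33 (SE 0.14).

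Igfbpl1 encodes a secreted protein related to the insulin-like growth factor binding proteins, which marks newly born neurons. The gene spans 45809468 to 45826923 of chromosome 4 (minus strand). The counts were 13, 2 and 5 in WT mice B, D and E and 17, 25 and 19 in KO mice A, C and F, or 0.838, 0.1004 and 0.251 against 1.38, 1.80 and 1.25 CPM. This was the largest log2 fold change of the 9, at 1.95 (SE 0.64), with an edgeR adjusted p of 0.373. It rested on few reads, and it was 1.47 without mouse D and 3.02 without mouse B, the extremes when 1 library was left out. Without the low-count filter the edgeR adjusted p was 0.0525.

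Cd24a encodes a small glycosylated surface protein of neuroblasts, also found on ependymal, epithelial and blood cells. It lies on the plus strand of chromosome 10 from 43578284 to 43584265. WT mice B, D and E read 9.80, 10.1 and 6.03 CPM, and KO mice A, C and F 12.4, 10.4 and 10.9 CPM. KO mouse C was barely above WT mouse D. The log2 fold change was 0.37 (SE 0.23), with an edgeR adjusted p of 0.542 and an unadjusted p of 0.131. Without WT mouse E it was 0.17. Of 10 ependymal genes 7 were tested, and none passed an unadjusted p under 0.05 in either direction (median log2 fold change 0.16). Their summed CPM ran from 38.6 to 59.4 in WT and from 28.3 to 45.5 in KO.

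Dlx5 and Dlx6 are neighbouring homeobox genes on chromosome 6, expressed in GABAergic progenitors and neuroblasts. Dlx5 lies on the minus strand from 6877805 to 6882085 and Dlx6 on the plus strand from 6863334 to 6868568. Dlx5 read 2.26, 2.26 and 3.47 CPM in WT mice B, D and E and 3.90, 6.55 and 3.10 CPM in KO mice A, C and F. KO mouse F lay below WT mouse E, and the log2 fold change was 0.76 (SE 0.34, edgeR adjusted p 0.458), or 0.38 without KO mouse C. Dlx6 read 2.90, 0.151 and 3.01 CPM in WT against 7.80, 4.53 and 4.42 CPM in KO, where the value of mouse D came from 3 counts. The Dlx6 difference was 1.47 on the log2 scale (SE 0.72), at an edgeR adjusted p of 0.480, and 0.90 (SE 0.32, unadjusted p 0.0197) without that library. The antisense transcript Dlx6os1 overlaps Dlx6 on the opposite strand, and the counting used strand.

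Nes encodes nestin, an intermediate filament of neural progenitors that is also present in endothelial cells and pericytes. It lies on the plus strand of chromosome 3 from 87971078 to 87980451. Nes read 7.73, 15.3 and 9.80 CPM in WT mice B, D and E and 9.51, 14.2 and 6.46 CPM in KO mice A, C and F. The groups overlapped throughout. The log2 fold change was -0.13 (SE 0.33), with an edgeR adjusted p of 0.892, and the sign turned to 0.19 without mouse D. The exact permutation test of the 3 against 3 CPM values gave 0.7 (two-sided, smallest possible 0.1).

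Mki67 and Top2a are expressed in dividing cells: Mki67 encodes a protein of the surface of mitotic chromosomes, and Top2a the topoisomerase that untangles replicated DNA. Both are of the group of genes whose promoters often hold CCAAT boxes and cell-cycle elements that repress them outside division. RefSeq promoter windows (GRCm38.p6) were found for 5 of the 9 members, Dcx, Mki67, Nes, Sox11 and Top2a. The 250 bases before the start are printed for the 2 proliferation genes only. Capitals mark each CCAAT (or ATTGG on the other strand) and each TTTGAA (or TTCAAA) or TTCGAA. Mki67 is chr7:135716380-135716629 and Top2a chr11:99024190-99024439, both on the minus strand and written 5′ to 3′.
Mki67: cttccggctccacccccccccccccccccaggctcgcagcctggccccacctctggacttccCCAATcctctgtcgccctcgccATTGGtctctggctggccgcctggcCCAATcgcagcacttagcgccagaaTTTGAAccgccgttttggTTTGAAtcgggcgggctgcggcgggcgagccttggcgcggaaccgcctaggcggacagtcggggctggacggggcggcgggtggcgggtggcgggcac
Top2a: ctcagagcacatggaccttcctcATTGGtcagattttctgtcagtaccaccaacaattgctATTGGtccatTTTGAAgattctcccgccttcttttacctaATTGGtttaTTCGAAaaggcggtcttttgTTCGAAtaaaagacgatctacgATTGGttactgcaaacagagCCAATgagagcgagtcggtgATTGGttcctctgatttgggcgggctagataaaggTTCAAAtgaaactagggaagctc
Mki67 held 3 CCAAT and 2 TTTGAA or TTCGAA matches, and Top2a 6 and 4. Sox11 held 1 of each, 1 of the 2 Dcx windows held 1 CCAAT, and Nes held neither. In the same 250 bases of all 32851 windows, 33.8% held a CCAAT, 17.1% a TTTGAA or TTCGAA and 6.02% both. A match is a run of letters and not a shown binding site.

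Mki67 (minus strand of chromosome 7, 135689784 to 135716361) had 11, 11 and 18 counts in WT brain B, D and E and 18, 17 and 23 in KO brain A, C and F. In CPM these were 0.709, 0.552 and 0.904 against 1.46, 1.22 and 1.52, with no overlap. The log2 fold change was 0.95 (SE 0.40), with an edgeR adjusted p of 0.435 and an unadjusted p of 0.0402. The unadjusted p was 0.123 without mouse D and 0.0893 with DESeq2. Top2a (minus strand of chromosome 11, 98992943 to 99024189) read 1.29, 0.853 and 1.06 CPM in WT and 2.52, 1.01 and 1.38 CPM in KO, with KO mouse C among the WT values. KO was higher by 0.61 on the log2 scale (SE 0.44), at an edgeR adjusted p of 0.593, and by 0.18 without KO mouse A. At 11 to 31 counts a library, both genes are measured with wide counting error.

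**Figure D2:**
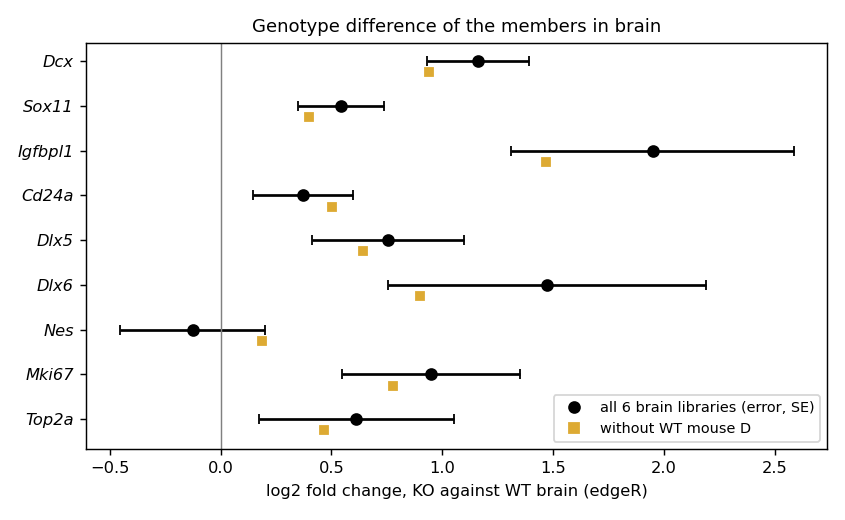
Log2 fold change of KO against WT brain for each member (horizontal axis), with SE, from all 6 libraries (circles) and without WT mouse D (squares). 8 members lie to the right of 0, and without mouse D Nes moves across 0 to 0.19.

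Per kilobase of exon, the level of the members in WT brain fell in the order Cd24a (3.35 CPM per kb), Sox11 (2.43), Nes (1.70), Dcx (1.53), Dlx5 (1.18), Dlx6 (0.851), Igfbpl1 (0.122), Top2a (0.118) and Mki67 (0.0717). In KO brain Cd24a (4.34 CPM per kb), Sox11 (3.54) and Dcx (3.41) led. Each neighbour in the WT order overlapped with the next over the 3 libraries, except that Top2a (0.0946 to 0.143 CPM per kb) lay above Mki67 (0.0549 to 0.0899) in all of them. Igfbpl1, a neuroblast gene, thus lay near the proliferation genes in WT brain, at 0.0309 to 0.258 CPM per kb, and at 0.385 to 0.553 CPM per kb in KO brain.

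The wider neuroblast and immature neuron list held 29 further genes, of which 28 were tested. Of these 19 were higher in KO, 9 passed an unadjusted p under 0.05 upward and 1 downward, and edgeR called 1; the median log2 fold change was 0.23. DESeq2 called 4 (Dlx1, Dlx6os1, Sp8 and Sp9) and edgeR with no filter 6, all of them higher in KO (counts of list genes in these fits were added after the data were seen). Without mouse D, 5 passed upward and 1 downward, and none was called. The called gene was Sp8, a zinc finger factor of bulb interneurons and their neuroblasts, with 0.451, 0.602 and 0.854 CPM in WT and 4.15, 5.83 and 4.09 CPM in KO (log2 fold change 2.85, SE 0.35, edgeR adjusted p 0.0303, or 0.112 without mouse D and at most 0.158 over the alternatives). The GABAergic homeobox gene Dlx1 averaged 4.38 CPM in WT and 13.8 CPM in KO (log2 fold change 1.66, SE 0.27, edgeR adjusted p 0.147, DESeq2 3.70e-05), and Dlx6os1 9.66 and 31.1 CPM (1.69, SE 0.35, edgeR adjusted p 0.320, DESeq2 3.33e-04). The symbol Dlx6os1 matched 2 rows of the counts, and the row not annotated as miscellaneous RNA was used. Of the other listed genes named here after their values were seen, Robo2, a receptor that guides migrating neurons, had 0.56 on the log2 scale (SE 0.21), Elavl2, a neuronal RNA-binding protein, 0.41 (SE 0.16), Tubb3, the neuronal beta-tubulin, -0.17 (SE 0.15), Stmn1, a tubulin regulator, -0.15 (SE 0.15) and Stmn2, a stathmin of growing axons, -0.38 (SE 0.13). Dlx1, Dlx6os1, Sp8 and the related factor Sp9 are genes the study called on these same libraries, and the list is no independent evidence of its direction.

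Upstream of neuroblasts, 17 of the 18 genes of the progenitor list were tested. Of these, 6 genes were higher in KO, 2 passed an unadjusted p under 0.05 upward and 4 downward, and the median log2 fold change was -0.20. Without mouse D, 1 passed upward and 1 downward, and the median was 0.05. The main edgeR fit called 0 genes of the list. DESeq2 called 1 higher and 1 lower in KO, and edgeR with no filter 1 higher and 2 lower. Egfr, the receptor that marks activated stem cells, averaged 14.3 CPM in WT and 13.7 CPM in KO (-0.06 on the log2 scale, SE 0.20). Fabp7, a fatty acid-binding protein of radial glia, astrocytes and olfactory ensheathing glia, averaged 20.9 CPM in WT and 38.8 CPM in KO (log2 fold change 0.90, SE 0.21, edgeR adjusted p 0.320, DESeq2 0.0284, edgeR with no filter 2.47e-04). Vim, the glial and progenitor filament protein vimentin, averaged 69.1 CPM and 30.4 CPM (-1.18, SE 0.34, edgeR adjusted p 0.355, DESeq2 0.0219, edgeR with no filter 1.86e-04). The Notch modifier Lfng had -0.57 (SE 0.21). The other gene that edgeR called lower with no filter was Pax6 (adjusted p 0.00102).

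The proliferation members can be set beside 35 other cell-cycle genes, of which 21 were tested and 14 were too low to test. Of the 21, 12 were higher in KO, 2 passed an unadjusted p under 0.05 upward and 1 downward, and none was called by edgeR. The median log2 fold change was 0.08. Without mouse D 23 were tested, 1 passed upward and none downward, and the median was -0.07. The mitotic protein Cenpf averaged 0.473 CPM in WT and 1.35 CPM in KO (1.51, SE 0.44, edgeR adjusted p 0.355), and the cyclin Ccna2 0.700 and 1.32 CPM (0.91, SE 0.39). The spindle checkpoint kinase Bub1b went the other way, at 4.03 and 1.07 CPM (-1.92, SE 0.69). DESeq2 called none of the list, and edgeR with no filter called 2, both lower in KO: Bub1b (adjusted p 3.27e-04) and the anaphase activator Cdc20 (1.13 and 0.150 CPM, adjusted p 0.00789), which was too low for the main test. The replication factor Pcna had a log2 fold change of 0.08 (SE 0.24).

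For the other niche, of 10 dentate neurogenesis genes 7 were tested. None passed an unadjusted p under 0.05 upward and 2 did downward, with a median of -0.01; without mouse D it was 1 in each direction. Eomes, the intermediate progenitor factor, had a log2 fold change of 0.30 (SE 0.46), which was 0.94 (SE 0.38, unadjusted edgeR p 0.0338) without mouse D and ranged from -0.17 to 0.94 when 1 library was left out. Neurod1, a factor of newly born granule neurons, averaged 89.4 ± 20.02 CPM in WT and 32.5 ± 21.2 CPM in KO (SD, n = 3), and its relative Neurod2 53.7 ± 8.77 and 29.1 ± 10.3 CPM, with no overlap in either gene. Their log2 fold changes were -1.46 (SE 0.49, edgeR adjusted p 0.394) and -0.89 (SE 0.26, edgeR adjusted p 0.355), and without mouse D -1.26 (SE 0.67) and -0.77 (SE 0.29). Neurod2 was called by DESeq2 (adjusted p 0.0670) and by edgeR with no filter (4.34e-05), and Neurod1 by neither (0.373 and 0.592). Over the list DESeq2 called 1 gene and edgeR with no filter 2, all lower in KO. Neurod1 is also abundant in cerebellar granule cells, and the 15 cerebellar genes were all lower in KO (13 at an unadjusted p under 0.05 and median -1.48, or 6 and -1.23 without mouse D). DESeq2 called 5 of the cerebellar genes and edgeR with no filter 6, all lower. The part of cerebellar RNA in the Neurod1 difference was not tested. The 8 genes of mature dentate granule cells held 1 upward and 2 downward (1 and 1 without mouse D), with a median of -0.37, and Prox1, which sets granule cell identity, averaged 45.3 CPM in WT and 26.7 CPM in KO (-0.76, SE 0.22). Of these genes DESeq2 called Prox1 alone (adjusted p 0.0942). With no filter edgeR called Prox1 (adjusted p 0.00103) and Dsp (0.00379), both lower in KO.

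**Figure D3:**
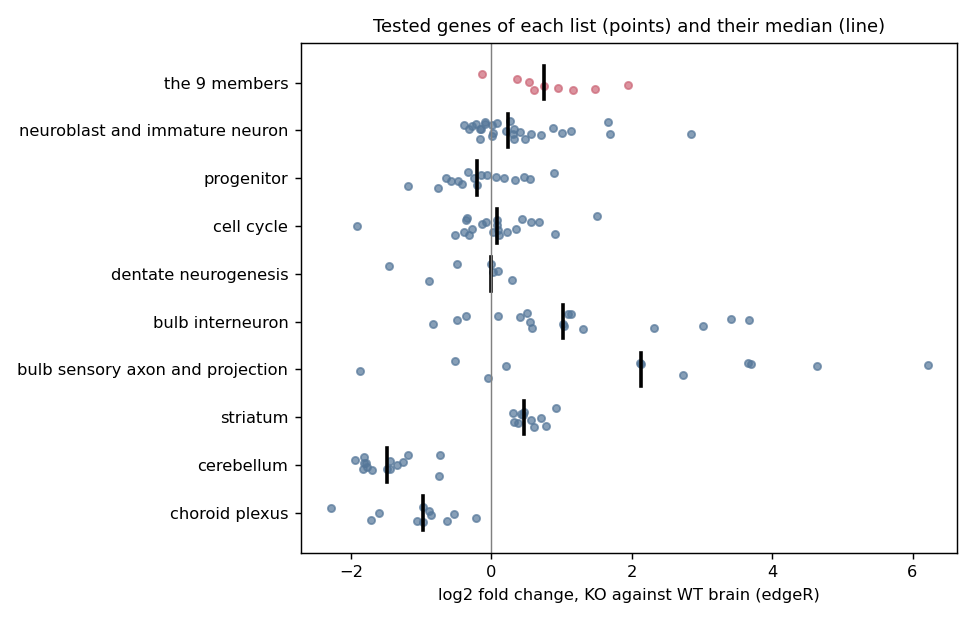
Log2 fold change of KO against WT brain (horizontal axis) for each tested gene (points) of 10 lists, with a line at the median. The members have a median of 0.76, between the neuroblast list (0.23) and the bulb interneuron list (1.02); the medians of the progenitor (-0.20), cell-cycle (0.08) and dentate neurogenesis (-0.01) genes are near 0 while single genes spread to both sides, and the median of the cerebellar genes is -1.48.

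Marker genes of the olfactory bulb, the destination of the neuroblasts, were also called in these brain libraries. Of 11 genes of sensory axons and projection neurons, 7 passed an unadjusted p under 0.05 upward and 1 downward, edgeR called 4 and the median log2 fold change was 2.13. The called genes were Omp, S100a5, Cdhr1 and Doc2g. Omp, the marker protein of mature olfactory sensory neurons, whose axons end in the bulb, read 0.838, 0.652 and 1.11 CPM in WT and 7.72, 12.2 and 14.04 CPM in KO (3.70, SE 0.32, edgeR adjusted p 0.00674). The cell bodies of these neurons lie in the nose and are not renewed from the subventricular zone. Of 17 bulb interneuron genes, 12 passed upward and 1 downward, 5 were called (Frmd7, Gng4, Cpa6, Pbx3 and Shisa3) and the median was 1.02. Gng4, a G protein subunit of granule cells, averaged 18.3 CPM in WT and 45.4 CPM in KO (1.31, SE 0.15, edgeR adjusted p 0.0241). Without mouse D the medians were 2.35 and 0.83, and edgeR still called Omp, S100a5, Doc2g and Frmd7, while the other 5 missed the threshold with log2 fold changes close to those of all libraries (2.74 for Cdhr1, 1.31 for Gng4, 2.86 for Cpa6, 1.13 for Pbx3 and 2.37 for Shisa3, at adjusted p from 0.102 for Cpa6 to 0.171 for Shisa3). With DESeq2, 6 sensory and projection genes were called upward and 1 downward, and 7 interneuron genes upward and 1 downward. The 2 that fell in that test were the homeobox gene Barhl2, at 20.2 CPM in WT and 5.50 CPM in KO (edgeR log2 fold change -1.87, DESeq2 adjusted p 0.00297), and the ETS factor Etv1, at 86.6 and 48.9 CPM (-0.83, DESeq2 adjusted p 0.0525). Many of these bulb genes were known from earlier results on these libraries when the lists were written. Among the neighbouring regions, all 11 striatal genes had higher fitted levels in KO (2 at an unadjusted p under 0.05 and median 0.47, or none and 0.24 without mouse D), and the 11 choroid plexus genes were all lower (9 at an unadjusted p under 0.05 and median -0.97, or 6 and -0.75 without mouse D). DESeq2 called 0 striatal genes and 5 choroid plexus genes, the latter all lower. With no filter edgeR called 1 striatal gene higher and 7 choroid plexus genes lower. Of the other brain cell types, endothelium and pericytes had a median of -0.32 (1 of 13 upward; 0.0065 and none without mouse D), meninges 0.04 (1 of 10 upward; 0.25 and none without mouse D), oligodendrocyte precursors -0.16 (0 of 8) and microglia 0.10 (0 of 8), with none downward.

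To set the neuroblast members beside the amount of bulb RNA, the log2 ratio of each of 6 members (Dcx, Sox11, Igfbpl1, Cd24a, Dlx5 and Dlx6) to a bulb level was taken in each library. Against the summed CPM of the bulb interneuron list, the median ratio was higher in KO by 0.53 and the groups did not overlap. Against the sum of the sensory and projection list it was higher by 0.60, again with no overlap. These sums are led by genes that other forebrain neurons share: Gad1, the GABA-synthesising enzyme, held 22.3% of the first and Uchl1, a neuronal ubiquitin hydrolase, 67.5% of the second, and the sums themselves differed by only 0.20 and 0.13 on the log2 scale. When every gene of a list was given equal weight through its geometric mean, an alternative chosen after seeing the data, the bulb levels were higher in KO by 0.99 and 1.72. The median member ratio was then lower in KO, by -0.26 with overlapping groups for interneurons and by -0.99 with no overlap for sensory and projection genes. Scgn of the interneuron list and S100a5 and Tbx21 of the other were at the floor in WT (at most 3 counts a library). The geometric means therefore depend in part on the prior count of the log2 CPM. Many genes of both lists were also chosen with their rise already known. The sign of the median ratio therefore turned with the weighting of the bulb genes, while the members differed. Igfbpl1 and Dlx6 had higher mean ratios in KO for every bulb level (lowest 0.15 and 0.28, with overlap). Sox11, Cd24a and Dlx5 were higher for both sums, with overlap, and lower for both geometric means. For Dcx alone the differences of mean log2 ratio were 0.996 and 1.07 against the sums and 0.21 and -0.52 against the geometric means. The exact permutation tests for Dcx (two-sided, 3 against 3) gave 0.1, the smallest possible, for the sums and 0.6 and 0.3 for the geometric means. After Benjamini-Hochberg adjustment over the 6 members these were 0.2 for each sum and 0.72 and 0.45 for the geometric means. More neuroblasts and more bulb tissue in a sample cannot be told apart from these libraries.

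**Figure D4:**
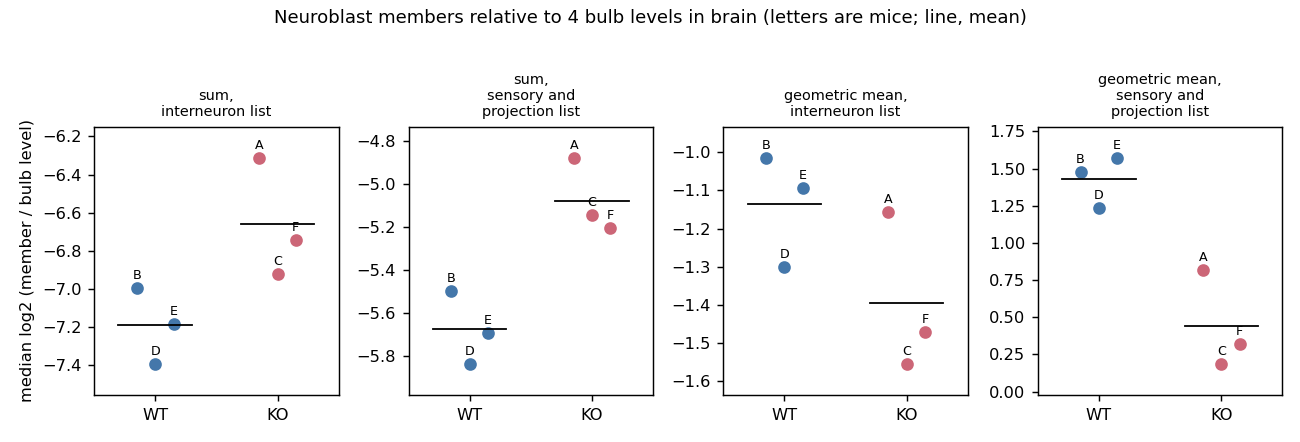
Median over 6 neuroblast members of the log2 ratio of member CPM to bulb level (vertical axes, which do not start at 0) in each brain library, for 4 definitions of the bulb level, with a line at the group mean. KO lies above WT for both sums (0.53 and 0.60), overlaps WT for the interneuron geometric mean (-0.26) and lies below it for the sensory and projection geometric mean (-0.99).

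Liver served as a second tissue of the same mice. Igfbpl1, Dlx5 and Dlx6 had 0 counts in all 6 liver libraries, Sox11 had at most 1 and Dcx at most 5, so 5 of the 9 members were not tested there and 4 were. edgeR called none of the 4, and 0% of the 14075 genes tested in liver, against 2.76% higher and 4.57% lower at an unadjusted p under 0.05. Mki67 was the 1 member at that level. It read 3.66, 4.23 and 7.55 CPM in WT mice B, D and E and 2.53, 1.23 and 3.23 CPM in KO mice A, C and F, with no overlap. The log2 fold change was -1.14 (SE 0.41), with an edgeR adjusted p of 0.558 (0.0403 with no filter, 0.323 with DESeq2), and -0.75 without WT mouse E. Cd24a read 2.01, 2.50 and 4.88 CPM in WT and 1.93, 1.85 and 1.51 CPM in KO, also without overlap, and differed by -0.83 on the log2 scale (SE 0.38) at an edgeR adjusted p of 0.703, or by -0.35 without WT mouse E. Non-overlapping groups were seen in 6.5% of liver genes upward and 6.44% downward. Nes (-0.02, SE 0.25) and Top2a (0.15, SE 0.31) overlapped. Of 21 other cell-cycle genes tested in liver, 10 were higher and 11 lower in KO, with a median of -0.02. At an unadjusted p under 0.05, 1 passed downward and none upward, near the shares of all liver genes. Their difference from Mki67 was not tested.

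The difference of the genotype effect between the tissues was tested itself, as brain minus liver over all 12 libraries. edgeR called 0% of 18944 genes and none of the 4 members, with 10.6% of genes at an unadjusted p under 0.05. For Mki67 the difference was 2.05 (SE 0.58), with an edgeR adjusted p of 0.236 and an unadjusted p of 0.00325. DESeq2 called Mki67, with an adjusted p of 0.0649. For Cd24a it was 1.16 (SE 0.45, edgeR adjusted p 0.392), or 0.49 without mouse E, for Top2a 0.43 (SE 0.52), or 0.075 without mouse A, and for Nes -0.13 (SE 0.46).

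**Figure D5:**
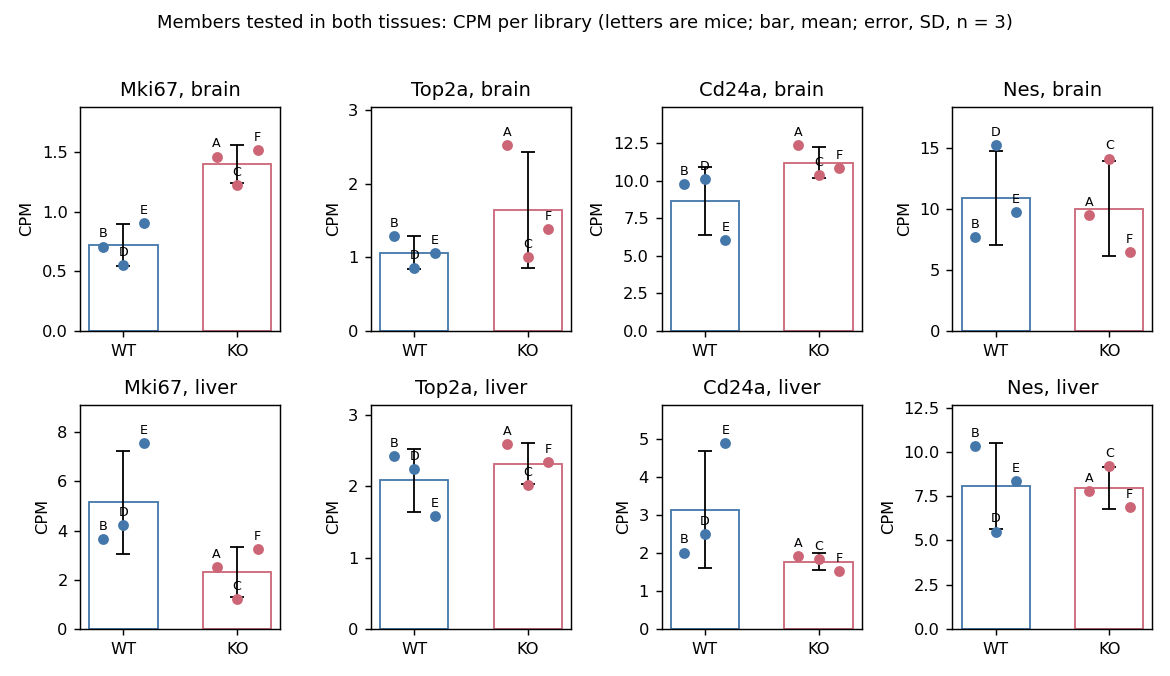
Normalised counts (CPM, linear vertical axes from 0) of the 4 members tested in both tissues, brain above and liver below, with bars for the group mean and error bars for the SD of 3 libraries. Mki67 and Cd24a have KO above WT in brain and below it in liver, with no overlap in either tissue, and Nes and Top2a overlap in both.

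Among 15837 brain genes with a mean of at least 1 CPM, those whose centred log2 CPM over the 6 brain libraries lay nearest to Dcx were Gm10509, A630081D01Rik, Chml, Gm37606 and Gm32014, at root mean square differences of 0.112 to 0.135. Chml, a Rab escort protein, averaged 14.8 CPM in WT and 28.1 CPM in KO. Those nearest to Top2a were Gm47477, Nexn, Gm37964, Gm37566 and Kdm4d, at 0.0902 to 0.110. None of these 10 genes is on any of the lists.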

How the data were processed

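RNA was measured as total RNA libraries (SMARTer Stranded v2, single-end) from brain and liver of 6 mice. Per the submitters' processing notes, reads were checked with FastQC 0.11.5, trimmed with Trimmomatic and aligned to mm10 with STAR 2.7.3a. The authors counted reads over exons with featureCounts in reverse-stranded mode, and the deposited values are raw counts per gene, without normalisation.

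Tests used edgeR 4.0.16 under R 4.3.3 (TMM, filterByExpr, robust quasi-likelihood F test, Benjamini-Hochberg over all genes tested, called at an adjusted p under 0.1) within each tissue, and over all 12 libraries for the difference between tissues. The study itself listed mouse genes with DESeq2 at that threshold; DESeq2 1.42.0 was an alternative here, with RLE size factors, no low-count filter, mitochondrial and rRNA genes left out, a covariate for libraries with over 1000 Y-linked counts, all libraries in one fit and each library left out. CPM are TMM-normalised; log2 CPM has a prior count of 2. The members and the 17 other lists (the cell types and regions named in the report, with hepatocyte and brain neuron markers) were chosen with earlier results of these data known. Of the 5 hepatocyte genes 4 were tested in brain, where 2 were lower in KO at an unadjusted p under 0.05 (1 without mouse D) and none higher. Ttr, which is also on the choroid plexus list, held 92.1% of the CPM of the hepatocyte list in brain. Of the 5 brain neuron genes 1 was higher and 1 lower. The rule for named genes took the members, Mettl5, and from each list the called genes and the 3 of smallest p, with the 5 genes most like Dcx and Top2a; other list genes in the text were picked after their values were seen. The labels pair brain and liver by mouse letter; deviations of the 2 tissues from their group means correlated at -0.0389 to 0.140 over 12574 genes. Counts of at most 3 in every library of a group were treated as the floor, and counting error alone is covered by such limits.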

Additional observations from a re-analysis of the deposited data

Results flagged for a closer look

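Mki67 and Cd24a were singled out because their genotype differences had opposite signs in the tissues, with every KO library above every WT library in brain and below in liver. The difference of log2 fold changes, brain minus liver, was 2.05 for Mki67 and 1.16 for Cd24a. When 1 mouse was left out it ran from 1.82 to 2.30 for Mki67 and from 0.49 (without mouse E) to 1.49 for Cd24a. edgeR's adjusted p for that difference was 0.236 for Mki67 and 0.392 for Cd24a, neither of them under 0.1. With mouse as a replicate block they were 2.10 (SE 0.52, edgeR adjusted p 0.240) and 1.11 (SE 0.53, edgeR adjusted p 0.605). DESeq2 gave adjusted p of 0.0649 for Mki67 and 0.247 for Cd24a. Brain counts of Mki67 were 11 to 23 a library, and liver counts 22 to 133.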

How the results depend on the processing

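In brain, edgeR called 11 genes, against 1000 with no low-count filter, 267 with DESeq2 and 2 to 23 when 1 library was left out (2 without WT mouse E, 23 without KO mouse C, 3 without B, 4 without D, 5 without F, 6 without A). Members called in brain were 0, against 2 with no filter and 1 with DESeq2, and 0 in each fit without 1 library; 3 to 5 members had an unadjusted p under 0.05 in all alternatives. In liver, 0 genes were called, against 443 with no filter, 171 with DESeq2, 82 with the Y-linked covariate, 3 with all 12 libraries in one fit and 0 to 87 without 1 library (87 without D, 2 without C); 1 member, Mki67, was called with no filter. For the difference between tissues 0 genes were called, against 1 with RLE size factors, 183 with no filter, 367 with DESeq2, 1 without mitochondrial and rRNA genes, 68 with mouse as a replicate block and 0 to 86 without 1 mouse (86 without D, 1 without F); DESeq2 called 1 member, Mki67, and the block changed no call of a member. The median member level per bulb level, 0.53, was 0.36 to 0.66 without 1 library, -0.26 with the interneuron geometric mean and -0.99 with that of the sensory and projection list. Nes changed sign in brain (-0.46 to 0.19 without 1 library: 0.19 without D, 0.11 without F), in liver (-0.23 to 0.20: 0.20 without B, 0.074 without F, 0.0029 with all libraries in one fit) and in the difference (-0.57 to 0.40: 0.40 without D, 0.011 without F), and Top2a in liver (-0.011 without E, up to 0.27 without B). The other members kept the sign of their log2 fold change under every alternative run. The cause of these shifts was not tested. Low counts limit Igfbpl1, Mki67 and Top2a in brain.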
